A study of Mus musculus with 8 samples.

Results

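This account covers 31 mouse genes of fatty acid oxidation and of the targets of PPARA. They were measured in regenerating livers of mice with a URI deletion in hepatocytes, labelled +/D, and of wild-type littermates. The genes were chosen by name, and a gene entered the analysis if its value was at least 10 in at least 3 libraries. Of the 31, the deposited table of 19055 gene symbols holds 30, and all 30 passed, as did 13704 rows in all. Acot4 was not analysed here. The study compared livers labelled URI(+/D)Hep, of which there are 5, with livers labelled URI(+/+)Hep, of which there are 3 and which came from wild-type littermates. The deletion was made in hepatocytes with a serum albumin-creERT2 line, whose recombinase tamoxifen switches on. The label URI(+/D)Hep writes a + and a D for the alleles, which reads as 1 wild-type and 1 deleted allele. All mice were 8 to 9 weeks old, received tamoxifen for 1 week and had liver removed surgically 48 hours before the remnant was collected, per the labels. The labels do not say whether the littermates carried the Cre transgene. Nothing in the labels says how the animals were fed or at which hour they were killed.

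Fatty acids reach the mitochondrial matrix as carnitine esters, made and taken apart by CPT1A and CPT2 and carried by the exchanger SLC25A20, and are then shortened by repeated rounds of dehydrogenation, hydration, oxidation and thiolysis. Peroxisomes run a related cycle with their own enzymes on very long chains and dicarboxylic acids, the CYP4A enzymes hydroxylate the far end of the chain, and acyl-CoA thioesterases of the ACOT family release free acids. PPARA, a nuclear receptor that fatty acids activate and that pairs with RXR, drives many of these genes in fasting liver. Regenerating liver is known to accumulate fat for a time after hepatectomy and to use it as fuel.

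PPARA and RXR bind a DR1 element, which is AGGTCA, then any base, then AGGTCA again. RefSeq promoter windows of build GRCm38.p6, from 250 bases before to 50 after a start site, were available for 24 of the 31 genes, in 26 windows. On either strand and with at most 2 mismatches, 4 of these windows held the repeat (15.4%), against 3.86% of 32851 windows of all genes. The 4 belonged to Fabp1, Creb3l3, Slc25a20 and Acot4, and no other window was called a match. The windows of the first 3 are shown because these genes are measured, and that of Pdk4 because its level differed most among livers of the same genotype. Capitals mark the match, and Pdk4 has none within this window. The Fabp1 window is chr6:71199629-71199928 on the plus strand, with 1 mismatch starting 67 bases before the start site. Those of Creb3l3 (chr10:81092542-81092841, minus strand) and Slc25a20 (chr9:108661886-108662185, plus strand) have 2 mismatches, and the Pdk4 window is chr6:5496229-5496528 on the minus strand. A match describes letters and does not show binding.
Fabp1: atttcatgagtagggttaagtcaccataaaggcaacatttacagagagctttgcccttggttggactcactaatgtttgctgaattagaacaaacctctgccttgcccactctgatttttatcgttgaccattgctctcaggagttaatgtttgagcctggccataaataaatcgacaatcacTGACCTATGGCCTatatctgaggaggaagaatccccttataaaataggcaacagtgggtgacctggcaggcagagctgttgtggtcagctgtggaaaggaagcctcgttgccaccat
Creb3l3: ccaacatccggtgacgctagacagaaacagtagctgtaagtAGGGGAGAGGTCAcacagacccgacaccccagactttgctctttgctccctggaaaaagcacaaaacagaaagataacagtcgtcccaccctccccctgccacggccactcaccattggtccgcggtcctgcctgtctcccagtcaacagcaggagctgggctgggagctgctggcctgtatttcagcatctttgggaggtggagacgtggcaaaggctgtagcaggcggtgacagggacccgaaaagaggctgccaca
Slc25a20: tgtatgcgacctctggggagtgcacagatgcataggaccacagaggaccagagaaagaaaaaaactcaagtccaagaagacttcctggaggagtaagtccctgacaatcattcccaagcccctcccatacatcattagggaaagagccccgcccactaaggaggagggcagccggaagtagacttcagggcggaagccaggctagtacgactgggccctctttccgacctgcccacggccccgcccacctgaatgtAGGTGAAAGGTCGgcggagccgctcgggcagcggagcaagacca
Pdk4: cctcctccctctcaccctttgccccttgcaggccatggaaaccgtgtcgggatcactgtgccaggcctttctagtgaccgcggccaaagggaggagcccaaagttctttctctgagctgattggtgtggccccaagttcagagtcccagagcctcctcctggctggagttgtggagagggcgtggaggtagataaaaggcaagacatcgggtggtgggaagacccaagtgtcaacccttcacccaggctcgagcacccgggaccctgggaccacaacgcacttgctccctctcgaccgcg

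Libraries held 4294494 to 4800694 reads in the URI(+/D)Hep livers and 3838674 to 4337966 in the URI(+/+)Hep livers, and values below are normalized reads, that is, reads divided by a size factor. Since this library type samples transcript ends, values of different genes are not compared as levels. Uri1 itself stood at 384 ± 42.7 in the URI(+/D)Hep livers and 384 ± 79.3 in the URI(+/+)Hep livers (SD, n = 5 and 3, exact permutation p = 0.982), and a 3′ tag outside the deleted part need not show the deletion. By the label, a + allele also remains in the URI(+/D)Hep livers. The groups are therefore called by their labels. The labels give the cell type as epithelial, and the 4 epithelial markers (Krt8, Krt18, Cdh1, Epcam) were all present. All 8 hepatocyte markers were present too, summing to 46111 to 55773 in the URI(+/D)Hep livers and to 56129 to 68809.5 in the URI(+/+)Hep livers, a separation that rested on Trf. Without Trf the other 7 summed to 26536 to 28222 in the URI(+/D)Hep livers and to 26456 to 30824 in the URI(+/+)Hep livers and overlapped. Log2 fold changes were above 0 for 2 of the 8 markers and below 0 for 6. Cps1, at 2709 to 3682 in the URI(+/D)Hep livers and 1077 to 1879.6 in the URI(+/+)Hep livers, lay above in each URI(+/D)Hep liver. Trf and Apoc3 lay below in each, with Apoc3 at 2338 to 2638 in the URI(+/D)Hep livers and 2731 to 3547 in the URI(+/+)Hep livers. Ranges were separate for 37.5% of the 8, against 13.4% of all genes tested. The 6 endothelial markers summed to 2140.2 to 2334 in the URI(+/D)Hep livers and to 1564 to 1996 in the URI(+/+)Hep livers. The part of these cell types in the values below was not tested. In whole tissue, fewer cells of a type and less RNA per cell cannot be told apart. Sex transcripts also differ: Xist, from the inactive X chromosome, stood at 2357, 1618, 1217, 1289.9 and 1891 in URI(+/D)Hep 1 to 5 and at 9.59, 2.95 and 1298 in URI(+/+)Hep 1 to 3. Reads of Kdm5d, Uty, Ddx3y and Eif2s3y, genes of the Y chromosome, came to 3.54 in URI(+/D)Hep 1, to between 786 and 1002 in URI(+/D)Hep 2 to 5, and to 1558, 1312 and 569 in URI(+/+)Hep 1 to 3. Only URI(+/D)Hep 2 to 5 and URI(+/+)Hep 3 thus hold both kinds of transcript in quantity. The labels do not say whether livers were pooled or mixed, so the number of animals behind each library is not known. Each library is called a liver here.

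No gene of fatty acid oxidation or among these PPARA targets passed the test between the genotypes. By limma on log2(value + 1), 0 of the 30 genes were called at an adjusted p under 0.05, where 2 of 13704 genes were (0.0146%), both lower in the URI(+/D)Hep livers. At an unadjusted p under 0.05 there were 2 higher genes (8.35% over all genes tested) and 2 lower genes (9.33%) among the 30, together 13.3% against 17.7% over all genes tested. The edgeR test on recovered reads called 0 of the 30 (0.0219% of all genes), with 4 at an unadjusted p under 0.05, and DESeq2 called 1 of the 30, Eci1, as lower, where it called 4.47% of all genes (1.72% higher, 2.74% lower). These DESeq2 shares count as uncalled the 4533 genes, Fgf21 among them, that it left without an adjusted p. Among genes with an adjusted p the shares are higher. Log2 fold changes were above 0 for 15 of the 30 genes and below 0 for the other 15, where 49.8% of all genes were above 0, and their median was 0.02 beside -0.0019 over all genes. The genotypes had separate ranges for 3 of the 30 genes, 1 higher (6.13% of all genes) and 2 lower (7.3%), where 13.4% of all genes did so in either direction. By role, the median log2 fold change was 0.06 over 13 mitochondrial genes, -0.06 over 5 peroxisomal genes, 0.13 over 6 Cyp4a and Acot genes and -0.54 over the 6 other targets and regulators. Single libraries moved all of these medians. With 1 left out, the mitochondrial median ran from -0.09 (without URI(+/+)Hep 2) to 0.17 (without URI(+/D)Hep 4) and the peroxisomal one from -0.19 (without URI(+/D)Hep 3) to 0.29 (without URI(+/+)Hep 1). The Cyp4a and Acot median was 0.25 without URI(+/+)Hep 1, 0.24 without URI(+/D)Hep 1, 0.06 without URI(+/D)Hep 2, -0.17 without URI(+/+)Hep 2, 0.39 without URI(+/+)Hep 3, 0.38 without URI(+/D)Hep 4 and -0.05 without URI(+/D)Hep 5. The median of the other targets was -0.09 without URI(+/+)Hep 1, -0.32 without URI(+/D)Hep 1 and -0.26 without URI(+/D)Hep 4, and 0.01 with the share of Y-linked reads as a covariate. In simulated libraries of this size, limma recovered 86.8% of the 106 genes given a 4-fold change but 38.4% of the 86 given a 2-fold change. Differences of 2-fold and less could thus go undetected. Larger ones could too, since the many changed genes in the simulated data make the adjusted threshold easier to pass. In the livers themselves Cyp4a12a, with a log2 fold change of -3.67, was not called (limma adjusted p = 0.115). The changed genes were picked at random and each gene was drawn on its own. The 30 genes spread more within genotypes (median SD 0.39 against 0.28 over all genes tested, log2 scale), so these rates need not hold for them.

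**Figure D1:**
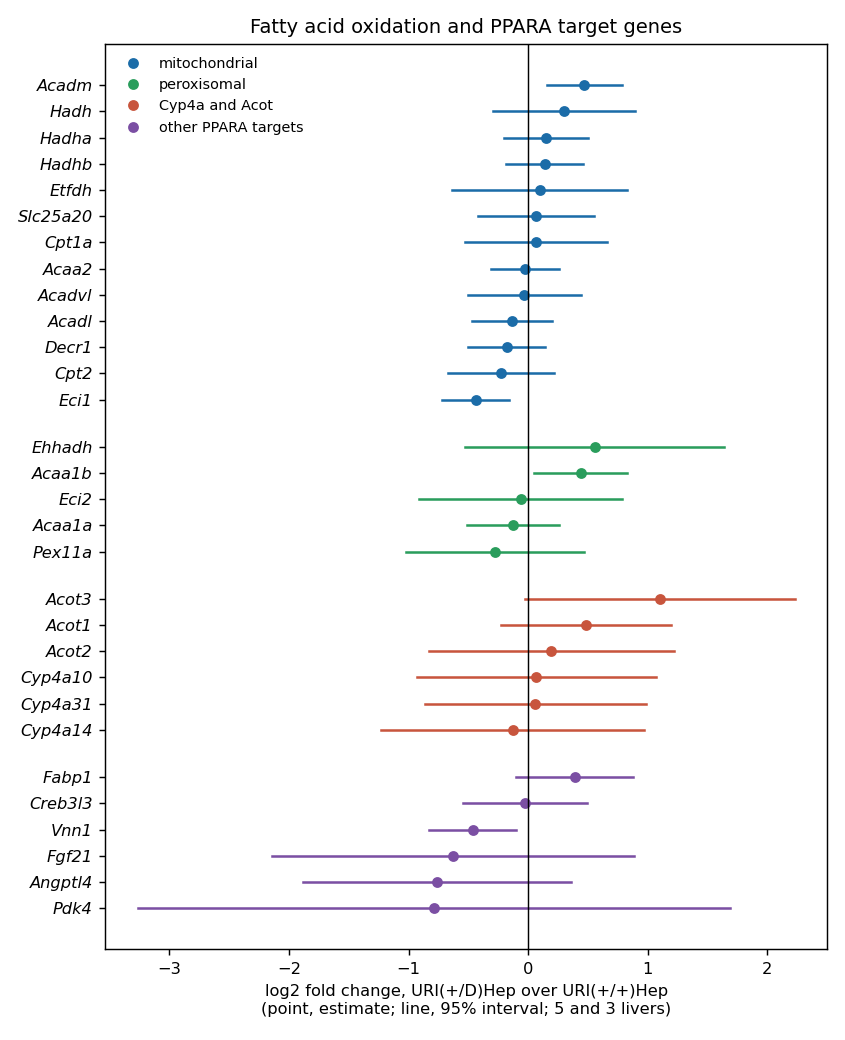
Log2 fold change of each of the 30 genes, URI(+/D)Hep over URI(+/+)Hep, on the log2(value + 1) scale. Points are estimates and lines 95% intervals from limma (5 and 3 livers), with the genes grouped by role. The intervals of Acadm, Acaa1b, Eci1 and Vnn1 leave out 0, and those of Pdk4 and Fgf21 are wide.

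Among the mitochondrial genes, Acadm and Eci1 had the smallest p, with log2 fold changes of opposite sign, and neither passed the limma test. Acadm, the medium-chain acyl-CoA dehydrogenase, stood at 846, 958, 1189.8, 1041 and 963 in URI(+/D)Hep 1 to 5 and at 614, 712 and 842 in URI(+/+)Hep 1 to 3. Each URI(+/D)Hep liver lay above each URI(+/+)Hep liver, the closest being URI(+/D)Hep 1 and URI(+/+)Hep 3. The log2 fold change was 0.47 ± 0.14 (estimate ± SE, with a 95% interval of 0.15 to 0.79, limma adjusted p = 0.151), and DESeq2 gave an adjusted p of 0.05005. Eci1, an enoyl-CoA isomerase that readies unsaturated chains for the cycle, stood at 392, 435, 488, 379 and 454 in URI(+/D)Hep 1 to 5 against 501, 606 and 645 in URI(+/+)Hep 1 to 3. Here each URI(+/D)Hep liver lay below each URI(+/+)Hep liver. The log2 fold change of Eci1 was -0.44 ± 0.12 (estimate ± SE, with a 95% interval of -0.72 to -0.16, limma adjusted p = 0.142), while DESeq2 gave an adjusted p of 0.0470. The smallest p that the 56 splits of the livers allow is 0.0179, and both genes reached it (two-sided exact permutation test). Across the 22 alternative settings the log2 fold change ranged from 0.30 to 0.59 for Acadm and from -0.57 to -0.36 for Eci1. The value of 0.30 for Acadm came from the libraries with both kinds of sex transcript, where that of Eci1 was -0.56. Eci1 was called by DESeq2 alone and Acadm in no setting.

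Carnitine shuttle genes overlapped between the genotypes. Cpt1a, the outer membrane transferase that admits long chains and is the main control point of the pathway, stood at 716, 1083, 1403, 597 and 1095 in URI(+/D)Hep 1 to 5 and at 1039, 876 and 785 in URI(+/+)Hep 1 to 3. URI(+/D)Hep 1 and 4 lay below all URI(+/+)Hep livers and URI(+/D)Hep 2, 3 and 5 above them, so the log2 fold change was 0.06 with an interval of -0.53 to 0.66 (limma adjusted p = 0.925). Cpt2, its partner on the inner membrane, ranged over 299.6 to 510.3 in the URI(+/D)Hep livers and 367 to 533 in the URI(+/+)Hep livers, and Slc25a20, the exchanger, over 509 to 871 in the URI(+/D)Hep livers and 547 to 775 in the URI(+/+)Hep livers. Their log2 fold changes were -0.23 and 0.07. Both also had their lowest URI(+/D)Hep values in livers 1 and 4.

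Among the remaining enzymes of the cycle no group separated from the other. Decr1, the reductase for polyunsaturated chains, stood at 1530.1, 1779.6, 1909, 1428 and 2138 in URI(+/D)Hep 1 to 5 and at 2038, 1819 and 2053 in URI(+/+)Hep 1 to 3, a log2 fold change of -0.18 ± 0.14 (estimate ± SE, limma adjusted p = 0.544). URI(+/D)Hep 5 lay above all URI(+/+)Hep livers, and URI(+/D)Hep 1, 2 and 4 below them. The dehydrogenases Acadvl, for very long chains, and Acadl, for long chains, had log2 fold changes of -0.03 and -0.14. Acaa2, the matrix thiolase, had one of -0.03, with an interval of -0.31 to 0.26, the narrowest but for Eci1 among the 30 genes.

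Hadha and Hadhb encode the subunits of the trifunctional protein, which carries out the later steps on long chains. They lie head to head, and their promoter windows overlap by 228 bases. Hadha ranged over 819 to 1260.4 in the URI(+/D)Hep livers and 871 to 1049 in the URI(+/+)Hep livers, and Hadhb over 142 to 188 in the URI(+/D)Hep livers and 129 to 171 in the URI(+/+)Hep livers. Their log2 fold changes were alike in size, 0.15 (interval -0.20 to 0.50) and 0.14 (interval -0.18 to 0.46). Hadh, the dehydrogenase for shorter chains, stood at 769, 620.4, 534, 727 and 551 in URI(+/D)Hep 1 to 5 and at 323, 529.7 and 800.3 in URI(+/+)Hep 1 to 3, a log2 fold change of 0.30. URI(+/+)Hep 1 was the lowest liver and URI(+/+)Hep 3 the highest. Etfdh, which passes electrons from the dehydrogenases to ubiquinone, ranged over 193 to 369 in the URI(+/D)Hep livers and 195 to 502 in the URI(+/+)Hep livers, with URI(+/+)Hep 1 the highest of all.

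In the peroxisomal set the thiolase gene Acaa1b had the smallest p. It stood at 3063, 3184, 2866, 2190.1 and 2852 in URI(+/D)Hep 1 to 5 and at 2429.7, 1586 and 2301 in URI(+/+)Hep 1 to 3. URI(+/D)Hep 4 overlapped the URI(+/+)Hep livers, and the other URI(+/D)Hep livers lay above them. The log2 fold change was 0.44 ± 0.17 (estimate ± SE, with a 95% interval of 0.05 to 0.83, limma adjusted p = 0.238, exact permutation p = 0.0714). Without URI(+/+)Hep 2 it was 0.25. The paralogue Acaa1a had a log2 fold change of -0.12. The split of reads between them is uncertain, since 38.8% of the 50-base stretches in the last 500 bases of Acaa1b transcripts also occur in Acaa1a.

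Ehhadh, the peroxisomal bifunctional enzyme and a classical PPARA target, stood at 106, 375, 537, 179 and 425 in URI(+/D)Hep 1 to 5 and at 198, 166 and 202 in URI(+/+)Hep 1 to 3. URI(+/D)Hep 2, 3 and 5 lay above every URI(+/+)Hep liver, URI(+/D)Hep 4 among them and URI(+/D)Hep 1 below. The URI(+/D)Hep mean of 325 ± 178 compares with 189 ± 19.4 in the URI(+/+)Hep livers (SD, n = 5 and 3), and the log2 fold change of 0.56 had an interval of -0.53 to 1.64 (limma adjusted p = 0.579). Without URI(+/D)Hep 1 this value was 0.90, and without URI(+/D)Hep 3 it was 0.32. Pex11a, which promotes division of peroxisomes, stood at 948, 1470.4, 1826, 967 and 2151 in URI(+/D)Hep 1 to 5 and at 2646, 1347 and 1359 in URI(+/+)Hep 1 to 3, a log2 fold change of -0.28 ± 0.33 (estimate ± SE, limma adjusted p = 0.700). Again URI(+/D)Hep 1 and 4 were the lowest livers. Eci2, an isomerase found in peroxisomes and mitochondria, ranged over 728 to 1793 in the URI(+/D)Hep livers and 829.3 to 2137 in the URI(+/+)Hep livers and had a log2 fold change of -0.06. It shares 9.85% of its 3′-end stretches with Eci3.

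**Figure D2:**
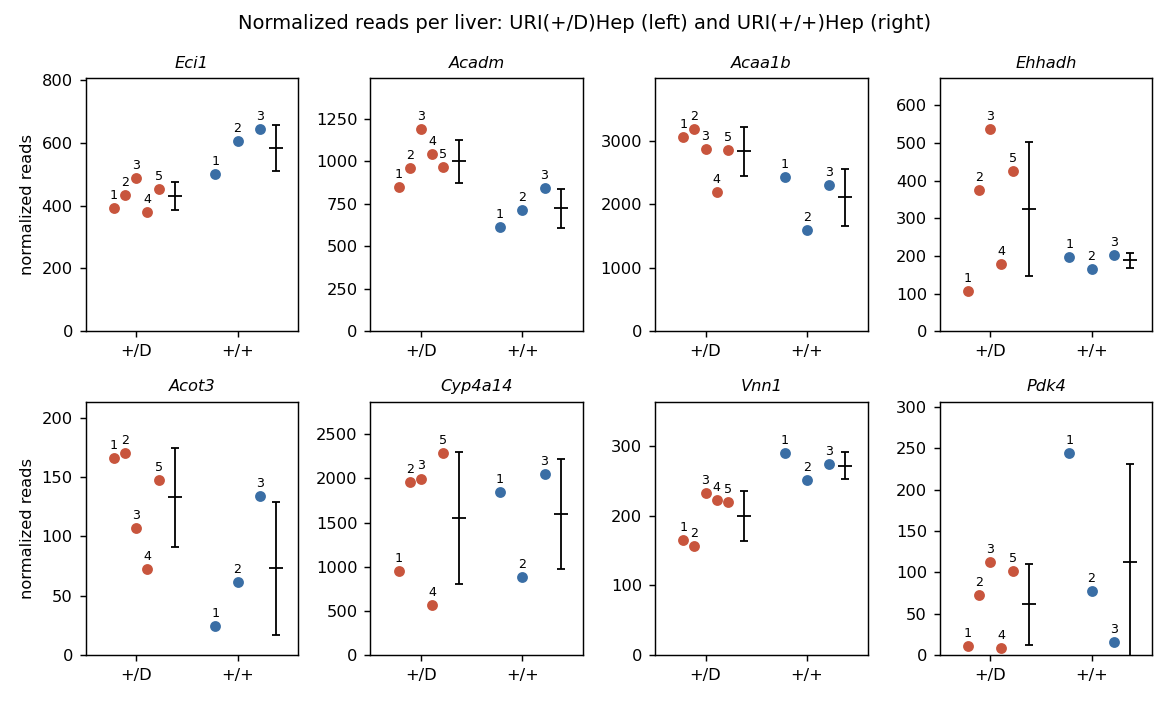
Normalized reads of 8 genes in each liver, URI(+/D)Hep on the left and URI(+/+)Hep on the right of each panel, with replicate numbers above the points and mean ± SD beside them (n = 5 and 3). The groups do not overlap for Eci1, Acadm and Vnn1, while URI(+/D)Hep 1 and 4 lie low for Ehhadh, Cyp4a14 and Pdk4. The lower bar of Pdk4 in URI(+/+)Hep would pass below 0 and is cut there.

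Thioesterase genes of the Acot cluster had positive log2 fold changes that did not pass the test. Acot3, which encodes a peroxisomal enzyme, stood at 166, 170.4, 107, 72.1 and 147 in URI(+/D)Hep 1 to 5 and at 24.0, 61.0 and 134 in URI(+/+)Hep 1 to 3. URI(+/+)Hep 1 and 2 lay below all URI(+/D)Hep livers and URI(+/+)Hep 3 among them, and the log2 fold change of 1.10 missed the threshold (SE 0.50, limma adjusted p = 0.289). Acot1, encoding the cytosolic enzyme and sharing 7.21% of its 3′-end stretches with Acot2, stood at 588, 574, 366, 401 and 432 in URI(+/D)Hep 1 to 5 and at 200.3, 311 and 583 in URI(+/+)Hep 1 to 3, a log2 fold change of 0.48 ± 0.31 (estimate ± SE, limma adjusted p = 0.450). URI(+/+)Hep 1 and 2, the lowest livers for both genes, are also the libraries with almost no Xist. In the 5 libraries that hold Xist and Y-linked transcripts together, with URI(+/+)Hep 3 as a lone control whose spread is taken from the other group, the log2 fold changes were -0.18 for Acot3 and -0.41 for Acot1. Without URI(+/+)Hep 1 they were 0.48 for Acot3 and 0.12 for Acot1, and without URI(+/+)Hep 3 they were 1.69 and 0.89. With the share of Y-linked reads as a covariate they were 0.57 and 0.09.

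Acot2, the mitochondrial member, stood at 145, 269, 224, 111 and 499 in URI(+/D)Hep 1 to 5 and at 194, 129 and 272 in URI(+/+)Hep 1 to 3, a log2 fold change of 0.19 ± 0.45 (estimate ± SE, limma adjusted p = 0.858). URI(+/D)Hep 5 was the highest liver. The same library had 525 normalized reads of Epcam and 65.3 of Krt19, markers of bile duct cells, where the other URI(+/D)Hep livers reached 29.96 and 5.80 and the URI(+/+)Hep livers 28.8 and 5.91. All 5 markers of that list were present, with Krt19 at 0 in URI(+/D)Hep 1. They summed to 886 in URI(+/D)Hep 5, of which Epcam gave 525, and to 220.1 to 341 in the other URI(+/D)Hep livers. In URI(+/+)Hep 1 to 3 the sums were 1643, 1051 and 245, so the list as a whole was not highest in URI(+/D)Hep 5. The part of bile duct cells in the Acot2 value was not tested, and without URI(+/D)Hep 5 the log2 fold change of Acot2 was -0.10.

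The Cyp4a genes, which encode omega-hydroxylases and are among the strongest known PPARA targets in mouse liver, overlapped widely between the genotypes. Cyp4a14 stood at 946, 1958, 1999.8, 560.2 and 2293 in URI(+/D)Hep 1 to 5 and at 1849, 881 and 2051 in URI(+/+)Hep 1 to 3. URI(+/D)Hep 1 and 4 and URI(+/+)Hep 2 were low, and the others lay between 1849 and 2293. Its log2 fold change was -0.13 with an interval of -1.23 to 0.97 (limma adjusted p = 0.915). For Cyp4a10, at 122 to 408 in the URI(+/D)Hep livers and 124 to 343 in the URI(+/+)Hep livers, the same 3 livers were the lowest, and its log2 fold change was 0.07. Cyp4a31, with one of 0.06, shares 9.96% of the 50-base stretches at its 3′ end with Cyp4a32 and 8.56% with Cyp4a10, so its counts are less certain.

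The other targets include secreted factors and a regulator of the response itself. Vnn1, which encodes the enzyme vanin-1 that releases cysteamine from pantetheine, stood at 164, 156, 233, 223 and 219.6 in URI(+/D)Hep 1 to 5 and at 290.2, 251 and 274 in URI(+/+)Hep 1 to 3. Each URI(+/D)Hep liver lay below each URI(+/+)Hep liver, with a log2 fold change of -0.46 ± 0.16 (estimate ± SE, with a 95% interval of -0.83 to -0.10, limma adjusted p = 0.197). Fabp1, the main cytosolic fatty acid carrier of hepatocytes, whose window above holds the closest match to the repeat, stood at 10349.8, 9084, 7441, 8964 and 6862 in URI(+/D)Hep 1 to 5 and at 4663, 6509 and 8863 in URI(+/+)Hep 1 to 3. Its log2 fold change was 0.39 ± 0.22 (estimate ± SE, limma adjusted p = 0.379). URI(+/+)Hep 1 and 2 were the lowest livers, as for Acot1 and Acot3, and in the 5 libraries with both kinds of sex transcript the log2 fold change was -0.14. It was 0.15 without URI(+/+)Hep 1 and 0.62 without URI(+/+)Hep 3. Creb3l3, a transcription factor of the fasting response that is tethered in the endoplasmic reticulum membrane and acts with PPARA, ranged over 519.9 to 945 in the URI(+/D)Hep livers and 663 to 961 in the URI(+/+)Hep livers, with a log2 fold change of -0.03.

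Angptl4, a secreted inhibitor of lipoprotein lipase, stood at 159, 324, 429, 173 and 634 in URI(+/D)Hep 1 to 5 and at 940.2, 429 and 328 in URI(+/+)Hep 1 to 3, a log2 fold change of -0.76 ± 0.50 (estimate ± SE, limma adjusted p = 0.454). Without URI(+/+)Hep 1 it was -0.32. Fgf21, the fasting hormone, stood at 10.6, 49.9999, 60.9, 9.37 and 62.3 in URI(+/D)Hep 1 to 5 against 56.4, 35.4 and 46.1 in URI(+/+)Hep 1 to 3, and its log2 fold change was -0.63 ± 0.67 (estimate ± SE, limma adjusted p = 0.666). This value was -0.28 without URI(+/D)Hep 1, -0.24 without URI(+/D)Hep 4 and -0.25 by edgeR. URI(+/D)Hep 1 and 4 were the lowest livers for both. Pdk4, the kinase that shuts off pyruvate dehydrogenase when fat is burnt, stood at 10.6, 72.2, 112, 8.43 and 102 in URI(+/D)Hep 1 to 5 and at 245, 77.8 and 15.0 in URI(+/+)Hep 1 to 3. URI(+/D)Hep 1 and 4 and URI(+/+)Hep 3 were low, and the log2 fold change of -0.79 had an interval of -3.26 to 1.69 (limma adjusted p = 0.747). Its size and sign depended on single libraries: it was 0.14 without URI(+/+)Hep 1 and -1.83 without URI(+/+)Hep 3, and it was -0.35 and -0.27 without URI(+/D)Hep 1 and 4. The values of Fgf21 and Pdk4 in the low livers lie near 10 reads, where log2(value + 1) understates differences.

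The spread among livers of the same genotype differed by role. The standard deviation of log2(value + 1) within genotypes had a median of 0.23 over the mitochondrial genes, 0.54 over the peroxisomal genes, 0.74 over the Cyp4a and Acot genes and 0.60 over the other targets and regulators, beside 0.28 over all genes tested. It was lowest for Eci1, at 0.16, and highest for Pdk4, at 1.84, which is above 99.4% of all genes tested. Next came Fgf21 at 1.10, Angptl4 at 0.83, Acot3 at 0.82, Cyp4a14 at 0.81 and Ehhadh at 0.80. Among mitochondrial genes it was highest for Etfdh (0.53), Cpt1a (0.43) and Hadh (0.42). The lowest values of Fgf21 and Pdk4 were near 10 reads, whereas Ehhadh, Cyp4a14 and Angptl4 had more than 100 normalized reads in every library.

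**Figure D3:**
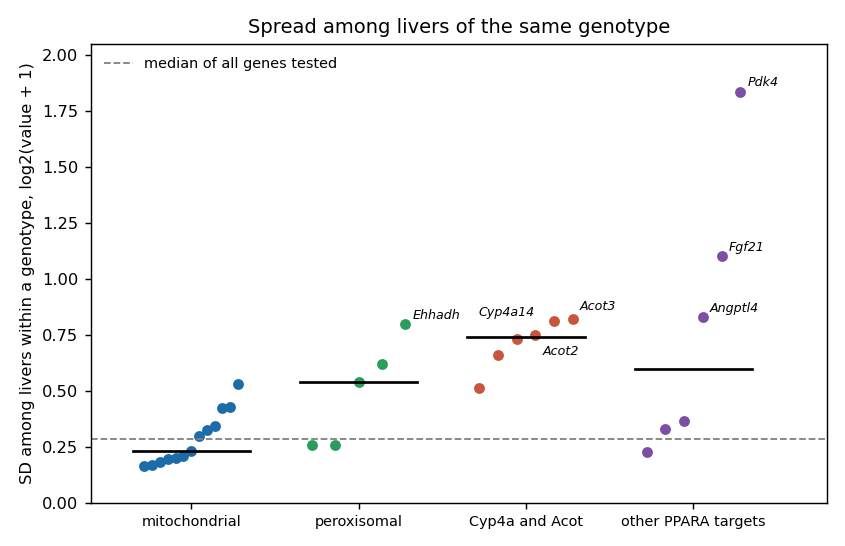
Standard deviation of log2(value + 1) among livers of the same genotype, pooled over both genotypes, for each of the 30 genes by role. Black lines are medians by role (0.23, 0.54, 0.74 and 0.60 from left to right) and the dashed line is the median over all genes tested (0.28).

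Much of this spread had the same direction across genes. URI(+/D)Hep 1 and 4 were the lowest livers of their group for 18 of the 30 genes (60.0%), and this held for 19.2% of all genes tested. Among the further lists described below, it held for 64.3% of PPARA targets, 45.5% of peroxisomal genes and 42.9% of mitochondrial oxidation genes. The shares were 37.5% of ketone body genes and 29.0% of PPARA and its partners. Over all genes tested, URI(+/D)Hep 1 and 4 were also the most alike pair of livers (rank correlation 0.988). The pattern was chosen after the values were seen. The 18 were Cpt1a, Cpt2, Slc25a20, Acadl, Hadha, Decr1, Eci1 and Etfdh of the mitochondrial set, Ehhadh, Eci2 and Pex11a of the peroxisomal set, Cyp4a10, Cyp4a14 and Acot2, and Creb3l3, Fgf21, Angptl4 and Pdk4. For each liver, the mean over the genes of a role of log2(value + 1), less the gene's own mean over the 8 livers, gives a level for that role. For the peroxisomal genes it was -0.45, 0.17, 0.48, -0.41 and 0.40 in URI(+/D)Hep 1 to 5, and 0.21, -0.23 and -0.18 in URI(+/+)Hep 1 to 3. For the mitochondrial genes livers 1 and 4 were again the lowest URI(+/D)Hep livers, over a narrower range, with -0.12, 0.08, 0.18, -0.27 and 0.16 in URI(+/D)Hep 1 to 5 and 0.08, -0.14 and 0.02 in URI(+/+)Hep 1 to 3.

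The other roles followed this order in part. For the secreted factors and other targets the level was -0.86, 0.15, 0.44, -0.91 and 0.48 in URI(+/D)Hep 1 to 5, and 0.74, 0.13 and -0.16 in URI(+/+)Hep 1 to 3. Of all livers URI(+/+)Hep 1 was the highest for this role. For the Cyp4a and Acot genes it was 0.03, 0.50, 0.19, -0.78 and 0.61 in URI(+/D)Hep 1 to 5, and -0.24, -0.68 and 0.36 in URI(+/+)Hep 1 to 3. Here URI(+/D)Hep 1 was not low, and Acot1 and Acot3 were near their highest in it. Mki67, which cells express while they divide, had 469, 333, 268, 586 and 49.5 in URI(+/D)Hep 1 to 5 and 24.0, 282 and 468 in URI(+/+)Hep 1 to 3, so that the livers low in Pdk4 were the ones highest in Mki67. All 7 cell cycle markers were present, none at 0, and their sums ranged over 318 to 2567 in the URI(+/D)Hep livers and 217 to 2465 in the URI(+/+)Hep livers. The part of cell division in the levels of these genes was not tested.

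**Figure D4:**
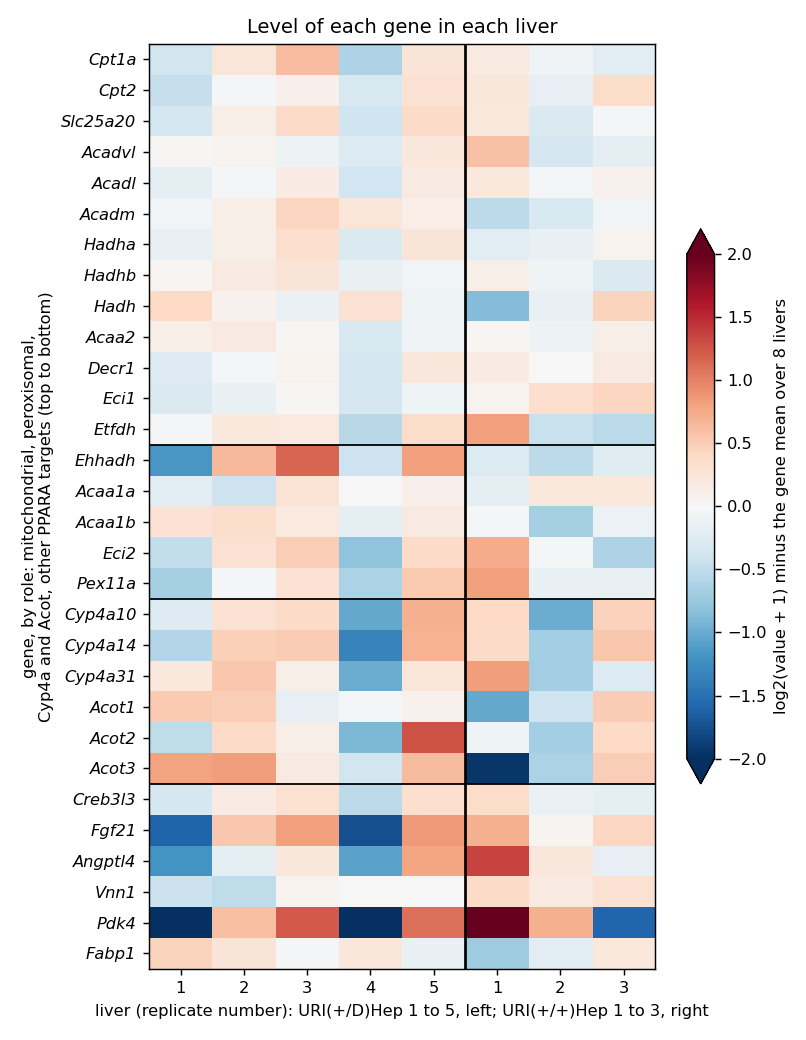
Level of each of the 30 genes in each liver as log2(value + 1) minus the gene's mean over the 8 livers, URI(+/D)Hep 1 to 5 on the left and URI(+/+)Hep 1 to 3 on the right. Colours saturate at 2 and -2, which Pdk4 passes. URI(+/D)Hep 1 and 4 are blue for most peroxisomal genes and for Fgf21, Angptl4 and Pdk4.

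**Figure D5:**
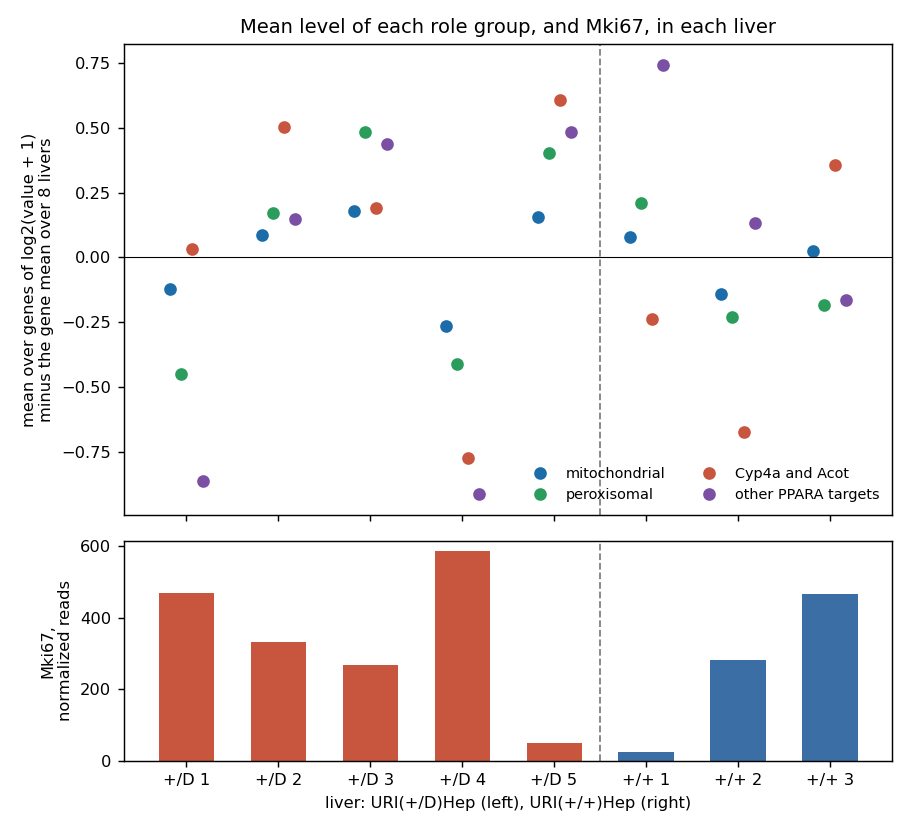
Upper panel, the mean level of the genes of each role in each liver, as defined in the text. Lower panel, normalized reads of Mki67, with URI(+/D)Hep livers on the left and URI(+/+)Hep livers on the right. URI(+/D)Hep 4, with the most Mki67 (586), has the lowest level of the mitochondrial, Cyp4a and Acot, and other target genes. URI(+/+)Hep 3, with 468, lies above 0 for the mitochondrial (0.02) and Cyp4a and Acot (0.36) genes. URI(+/+)Hep 1, with the least (24.0), lies below 0 for the Cyp4a and Acot genes (-0.24).

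The receptor PPARA and its partners were measured by a list of 31 genes, all tested, of which 0 passed in either direction by limma. There were 4 higher and 2 lower genes at an unadjusted p under 0.05, together 19.4% against 17.7% of all genes tested. The median log2 fold change was 0.16. Ppara stood at 3495, 4214, 4454, 3667 and 4489 in URI(+/D)Hep 1 to 5 and at 2498, 2822 and 3395 in URI(+/+)Hep 1 to 3. Each URI(+/D)Hep liver lay above each URI(+/+)Hep liver, with a log2 fold change of 0.49 ± 0.14 (estimate ± SE, with a 95% interval of 0.18 to 0.80, limma adjusted p = 0.140, DESeq2 adjusted p = 0.0289). Rxra, which encodes its main partner in liver, stood at 1234, 1054, 1298, 1241 and 1267 in URI(+/D)Hep 1 to 5 and at 1581, 1444 and 1782 in URI(+/+)Hep 1 to 3. It lay below in each URI(+/D)Hep liver, with a log2 fold change of -0.39 ± 0.11 (estimate ± SE, limma adjusted p = 0.136, DESeq2 adjusted p = 0.0255). Ppargc1b, a coactivator, stood at 116, 167, 215, 141 and 284 in URI(+/D)Hep 1 to 5 and at 80.4, 107 and 86.9 in URI(+/+)Hep 1 to 3 (log2 fold change 0.94 ± 0.27 as estimate ± SE, limma adjusted p = 0.146). Ranges of the genotypes did not overlap for any of the 3 genes, which were named for their small p. In the 5 libraries with both kinds of sex transcript, the log2 fold changes were 0.30 for Ppara, -0.56 for Rxra and 1.15 for Ppargc1b. For Ppara the lowest livers, URI(+/+)Hep 1 and 2, are those with almost no Xist. Over the list, ranges were separate for 16.1% of genes, against 13.4% of all genes tested.

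Other genes of uptake and oxidation were likewise not called by limma. Of 28 further mitochondrial oxidation genes 0 passed, with 3 higher and 2 lower at an unadjusted p under 0.05 (17.9%, against 17.7% of all genes tested). Their median log2 fold change was 0.05. Slc27a2, a very-long-chain acyl-CoA synthetase that also takes up fatty acids, had a log2 fold change of 0.58 ± 0.17 (estimate ± SE, limma adjusted p = 0.151), Pcca, of propionyl-CoA carboxylase, one of 0.30, and Acads, the short-chain dehydrogenase, one of -0.47, which was -0.31 without URI(+/+)Hep 3. In the libraries with both kinds of sex transcript the values were 0.28 for Slc27a2, 0.29 for Pcca and -0.82 for Acads. Of 33 further peroxisomal genes 0 passed, with 1 higher and 2 lower at an unadjusted p under 0.05 (9.09%) and a median of 0.02. Hsd17b4, the second bifunctional enzyme, had a log2 fold change of 0.39, Pex11g one of -0.32 and Acox3 one of -0.33.

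Ketone body genes, which dispose of the acetyl-CoA from oxidation, numbered 8, and 0 passed by limma. At an unadjusted p under 0.05 there were 1 higher and 2 lower (37.5%, against 17.7% of all genes tested). Slc16a6, which in zebrafish exports ketone bodies from hepatocytes, stood at 235, 236, 259, 292 and 322 in URI(+/D)Hep 1 to 5 and at 670.4, 469 and 381 in URI(+/+)Hep 1 to 3. All URI(+/D)Hep livers lay below, with a log2 fold change of -0.88 ± 0.19 (estimate ± SE, limma adjusted p = 0.115, DESeq2 adjusted p = 0.00308). The highest livers, URI(+/+)Hep 1 and 2, are those with almost no Xist. In the 5 libraries with both kinds of sex transcript, where URI(+/+)Hep 3 is the lone control, the log2 fold change of Slc16a6 was -0.47. The monocarboxylate transporter genes Slc16a7 and Slc16a1 had log2 fold changes of 0.60 and -0.40 (limma adjusted p = 0.146 and 0.181).

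Of 28 further PPARA targets that were tested, 0 passed by limma. There were 4 higher and 2 lower at an unadjusted p under 0.05 (21.4%, against 17.7% of all genes tested). Their median log2 fold change was -0.03. Cd36, a fatty acid translocase, stood at 216, 199.9990, 283, 264 and 202 in URI(+/D)Hep 1 to 5 and at 380.2, 510.0 and 456 in URI(+/+)Hep 1 to 3. Each URI(+/D)Hep liver lay below each URI(+/+)Hep liver, with a log2 fold change of -0.95 ± 0.16 (estimate ± SE, with a 95% interval of -1.30 to -0.59, limma adjusted p = 0.108, DESeq2 adjusted p = 0.000122). Pltp, the phospholipid transfer protein, had a log2 fold change of 0.67 ± 0.17 (estimate ± SE, limma adjusted p = 0.125). Cyp4a12a, the male-biased member of the Cyp4a family, stood at 1.77, 10.2, 12.6, 0.937 and 6.92 in URI(+/D)Hep 1 to 5 and at 155, 132 and 18.2 in URI(+/+)Hep 1 to 3, a log2 fold change of -3.67 ± 0.86 (estimate ± SE, limma adjusted p = 0.115, no adjusted p from DESeq2). In the 5 libraries with both kinds of sex transcript it was -1.47. Its high livers, URI(+/+)Hep 1 and 2, are those with almost no Xist, and the values under 3 reads in URI(+/D)Hep 1 and 4 leave the size of the difference uncertain, as does the 37.0% of 3′-end stretches it shares with Cyp4a12b. Cidec, a lipid droplet protein singled out after its values were seen, stood at 7.07, 477, 556, 8.43 and 521 in URI(+/D)Hep 1 to 5 and at 962, 376 and 15.0 in URI(+/+)Hep 1 to 3, with the same 3 low livers as Pdk4.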

How the data were processed

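The 5 URI(+/D)Hep and 3 URI(+/+)Hep liver samples were profiled by 3′ mRNA sequencing of total RNA with a 6 nt molecular identifier, per the labels' protocols. The authors deposited a table of normalized signal, in which each library's counts were scaled by its own factor. Among builds and tools, GRCm39, DESeq2, featureCounts and bcl2fastq stand in the submitters' processing notes. The aligner, the annotation and how identifiers were used are not given here. When values were divided by the smallest one above 0 in their library, 100% came out whole within 1e-06. The step of URI(+/D)Hep 5 is close to 1 and so less certain. Replicates are separate samples by label, and p-values measure the spread between them. Whether each sample is 1 animal is not known.

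Rows that reached 10 in 3 or more libraries entered limma 3.58.1 (R 4.3.3) on the log2(value + 1) scale (mean-variance trend, Benjamini-Hochberg adjustment over 13704 rows, calls under 0.05). Intervals are 95% limma intervals. edgeR 4.0.16 and DESeq2 1.42.0 were run on recovered reads, and DESeq2 left 4533 genes, Fgf21 and Cyp4a12a among them, without an adjusted p. The limma step was tested on simulated data of 13788 genes. Single genes also had a two-sided exact permutation test. The genes, lists and roles were chosen with earlier results of these data known. Values in every liver are given for the 3 genes of each role with the smallest p, for Cpt1a, Ehhadh, Cyp4a14 and Fgf21, and, after values were seen, for Pdk4, Hadh and Cidec. From each further list the 3 genes with the smallest p are named, with Ppara and Cyp4a12a, and 2 genes of those lists that the rule also names are not reported here. Promoter and 3′-end comparisons used RefSeq and GENCODE of GRCm38, and no coordinates were converted. Alternatives were other pseudocounts (0.5, 8), filters (none, a mean of at least 50), scalings (TMM, quantile), no trend, a replicate block, the share of Y-linked reads as a covariate, each library left out, and URI(+/+)Hep 1 and URI(+/D)Hep 5 left out together. Added after seeing the data were edgeR on 7 libraries and a fit of the 5 libraries with more than 100 normalized reads of both Xist and Y-linked genes.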

Additional observations from a re-analysis of the deposited data

Results flagged for a closer look

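In 3 of 50 sets of 5 URI(+/D)Hep values, 1 liver stood further from the nearest other than Dixon's 95% limit for 5 values (0.71 of the range), and chance gives about 1 in 20 such sets. Pcca stood at 618 in URI(+/D)Hep 2, the highest of its group. Acox3 stood at 355 in URI(+/D)Hep 5, also the highest. Rxra stood at 1054 in URI(+/D)Hep 2, the lowest. No value of the 30 fatty acid oxidation and PPARA target genes stood apart in this way.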

How the results depend on the processing

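No gene of fatty acid oxidation or among these PPARA targets was called in any of 22 alternatives except Eci1 with DESeq2, which makes 1 of the 30 called there, against 0 otherwise. Over the whole table limma called 0 higher and 2 lower genes. The counts were 1 and 3 with a mean of at least 50, 0 and 3 with edgeR on 8 libraries, 0 and 1 with quantile normalization, 0 and 0 without the trend, with the replicate block, with the Y-linked share, in the 5 libraries holding both sex transcripts and with edgeR on 7 libraries, 1 and 0 without both URI(+/+)Hep 1 and URI(+/D)Hep 5, and 236 and 376 with DESeq2. Leaving out 1 library gave 0 to 11 higher and 0 to 23 lower genes, the most without URI(+/+)Hep 3. The main fit did not treat replicate numbers as pairs. Same-numbered livers deviated with correlations of -0.40, -0.04 and -0.27, and differently numbered ones with -0.54 to 0.54. With so few pairs and so wide a range, these values cannot show whether livers were matched. The median of the peroxisomal genes was 0.35 once the Y-linked share was a covariate, where that of the other targets was 0.01. Over all alternatives the median of the other targets ranged from -0.71 to 0.01 and that of the Cyp4a and Acot genes from -0.28 to 0.39. DESeq2 also called Slc27a2, Slc16a6, Slc16a7, Cd36, Pltp, Rxra, Ppara and Ppargc1b. Of 45 named genes 27 kept their sign in every alternative, 12 of them among the 30, and 18 took the other sign in some, in no case with a call. With quantile normalization these were Acadvl (0.00653), Acaa2 (0.0399), Eci2 (0.00833) and Creb3l3 (0.000495). With the replicate block these were Acaa2 (0.0927), Eci2 (0.0634), Cyp4a14 (0.0493) and Creb3l3 (0.0294). Under the Y-linked covariate these were Acadvl (0.0455), Hadh (-0.0243), Eci2 (0.35), Pex11a (0.0566), Creb3l3 (0.18) and Pdk4 (0.58). Without both URI(+/+)Hep 1 and URI(+/D)Hep 5 these were Acadvl (0.19), Acaa2 (0.00258), Eci2 (0.19), Acot2 (-0.0875) and Creb3l3 (0.0587). With edgeR on 8 libraries these were Etfdh (-0.00919). With DESeq2 these were Etfdh (-0.00456) and Creb3l3 (0.00112). With edgeR on 7 libraries these were Etfdh (-0.10), Cyp4a10 (-0.13), Cyp4a31 (-0.0331) and Acot2 (-0.0804). In the 5 libraries holding both sex transcripts these were Acadvl (0.17), Hadh (-0.41), Eci2 (0.71), Pex11a (0.18), Cyp4a10 (-0.37), Acot1 (-0.41), Acot2 (-0.18), Acot3 (-0.18), Creb3l3 (0.25), Angptl4 (0.10), Pdk4 (1.73) and Fabp1 (-0.14). With 1 library left out, the log2 fold change ranged from its lowest to its highest value as follows: Acadvl -0.21 to 0.25, Hadh -0.0393 to 0.61, Eci2 -0.39 to 0.29, Pex11a -0.44 to 0.0447, Cyp4a14 -0.51 to 0.19, Creb3l3 -0.12 to 0.15, Pdk4 -1.83 to 0.14, Slc25a20 -0.0587 to 0.19, Etfdh -0.15 to 0.53, Cyp4a10 -0.41 to 0.33, Cyp4a31 -0.26 to 0.50, Acot2 -0.10 to 0.45, Cpt1a -0.0835 to 0.22 and Acaa2 -0.0875 to 0.0495. The cause of these changes of sign was not tested. Depth limits the values of Fgf21, Pdk4 and Cyp4a12a, where 3 reads equal 2.65 to 3.60 normalized reads.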
